A study of Rattus norvegicus with 12 samples.

Results

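The immediate early genes of the rat ovary were examined by looking up 10 gene names, namely Fos, Fosb, Jun, Junb, Jund, Egr1, Egr2, Atf3, Ier2 and Dusp1. Of these, 9 were among the 19730 genes of the expression table, each as a single gene, and the expression of Ier2 is not analysed here. Ovarian RNA was sequenced from 12 wild type Sprague Dawley rats aged post natal week 15, with 1 library per rat. The rats formed a Control, a PCOS and a PCOS-MV group of 4 each. The Control rats were untreated and ate standard pellets. The PCOS rats had received letrozole, an aromatase inhibitor, with a high-fat diet for 30 days, and they are a drug and diet model of polycystic ovary syndrome (PCOS). The PCOS-MV rats had the same treatment followed by mogroside V (MV), a sweet triterpene glycoside of monk fruit, for 30 days. By the methods, letrozole and the high-fat diet ended before MV began, and all rats were killed after the MV period. MV was given by oral gavage and no vehicle gavage of the other rats is described, so MV and gavage cannot be told apart. The methods name chloral hydrate as the anesthetic in one place and urethane in another, and each library came from whole ovary tissue, which mixes cell types. The values are FPKM, which scale the fragments of a gene by its length and by the mapped fragments of the library. They do not correct for differences in RNA composition between rats.

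Immediate early genes are transcribed within minutes of a signal, without new protein synthesis, and their transcripts are short-lived. Growth factors and gonadotropins reach them through the MAP kinases ERK, JNK and p38 and through cAMP, which act on transcription factors such as SRF with its ELK partners and CREB that already sit at their promoters. In the ovary they are known for the response of follicles to the LH surge. Most members are transcription factors, and Dusp1 is a phosphatase that switches the MAP kinases off.

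The stretch just upstream of the gene is where those factors bind, so the 250 bases before the start of 4 members are shown, taken from RefSeq on the rat assembly GRCr8. Egr1 and Egr2 are shown as a pair with SRF-type letters, Dusp1 as the member with the clearest group difference, and Jund as the member that varied least. The windows lie at chr18:26736828-26737077 (plus strand) for Egr1, chr20:21054442-21054691 (minus strand) for Egr2, chr10:17184603-17184852 (plus strand) for Dusp1 and chr16:18769772-18770021 (minus strand) for Jund. Each is written 5′ to 3′ in the direction of the gene, and the capitals mark CArG boxes, CRE letters and, in Jund, an EGR site.
Egr1: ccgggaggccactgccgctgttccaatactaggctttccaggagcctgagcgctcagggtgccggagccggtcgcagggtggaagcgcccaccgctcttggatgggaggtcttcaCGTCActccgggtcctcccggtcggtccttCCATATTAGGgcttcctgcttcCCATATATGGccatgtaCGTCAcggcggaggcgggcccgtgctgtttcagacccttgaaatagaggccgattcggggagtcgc
Egr2: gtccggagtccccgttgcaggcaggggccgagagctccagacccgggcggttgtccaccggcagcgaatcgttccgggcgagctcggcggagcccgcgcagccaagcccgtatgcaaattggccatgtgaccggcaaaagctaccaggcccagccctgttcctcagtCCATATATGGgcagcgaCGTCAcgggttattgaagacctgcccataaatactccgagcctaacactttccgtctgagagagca
Dusp1: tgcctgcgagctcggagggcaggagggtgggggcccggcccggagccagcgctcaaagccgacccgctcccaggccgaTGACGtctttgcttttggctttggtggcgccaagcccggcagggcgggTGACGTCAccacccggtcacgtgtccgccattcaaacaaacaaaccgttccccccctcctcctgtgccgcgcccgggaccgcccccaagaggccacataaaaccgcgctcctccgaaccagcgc
Jund: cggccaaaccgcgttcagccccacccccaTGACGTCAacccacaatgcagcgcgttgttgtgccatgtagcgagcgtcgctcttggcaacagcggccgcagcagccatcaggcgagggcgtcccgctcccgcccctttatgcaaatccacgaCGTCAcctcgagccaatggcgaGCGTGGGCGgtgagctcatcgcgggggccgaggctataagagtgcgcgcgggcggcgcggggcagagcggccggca

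Egr1 held 2 CArG boxes, the class of sequence that SRF binds, with the letters CCATATTAGG at bases -105 to -96 and CCATATATGG at bases -83 to -74. Egr2 held CCATATATGG at the same distance, bases -83 to -74. CArG boxes were present in 1.5% of 33469 rat promoter windows of this length. The CRE letters TGACGTCA, to which CREB and ATF proteins bind, were found in Dusp1 at bases -124 to -117, in Jund at bases -221 to -214 and in Ier2 at bases -66 to -59, and in 1.59% of all windows. The shorter CRE letters TGACG, which every full CRE contains on both strands, was in 18.2% of windows. It occurred apart from a full CRE in Egr1, Egr2, Junb, Jund and Dusp1. The AP-1 letters TGANTCA, where FOS and JUN dimers bind, were in 6.34% of windows and in 0 of the 7 windows examined. The EGR letters GCGTGGGCG were in 0.478% of windows and in Jund alone among the members, at bases -76 to -68. The letters TATAAA, searched on the given strand only where the other motifs were searched on both, were in 8.06% of windows and, among the members, in Junb at base -49. Fosb held none of these motifs, and Fos, Jun and Atf3 are named only. A match describes letters and not binding, and letters missing from this window say nothing about the factor.

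**Figure D1:**
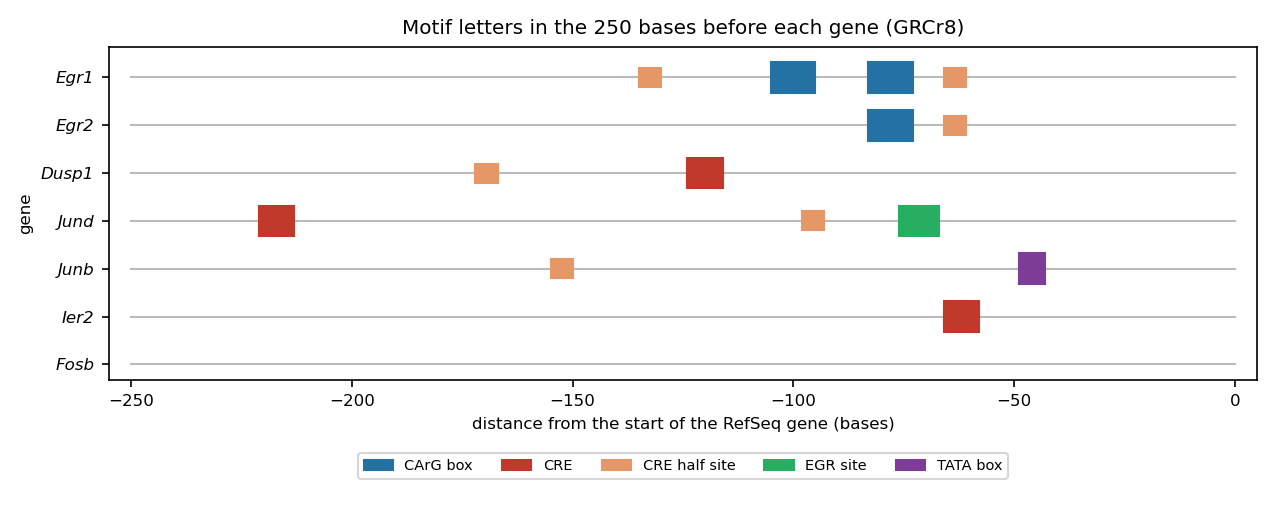
Positions of motif letters in the 250 bases before the start of 7 immediate early genes in RefSeq on GRCr8. The horizontal axis is the distance from the gene start in bases, each line is 1 gene and each box is 1 match. CArG boxes lie at the same distance, from base -83, in Egr1 and Egr2, and full CRE letters lie in Dusp1, Jund and Ier2.

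The 12 libraries had FPKM sums of 339830 to 373758 and 17576 to 18247 genes above 0, and the number of reads behind them is unknown. Of the libraries, 2 stood apart in ways that touch the results below. Control 3 had the lowest correlation with a library of its own group, 0.921, and the highest summed FPKM of markers of ciliated and secretory oviduct cells. This sum, over the 4 of 6 listed markers that were present, was 27.5 FPKM in Control 3 and 2.41 to 4.90 FPKM in the other 11 libraries, and its transcription factor marker Pax8 was at 10.7 FPKM against 0.265 to 0.870. Its sum of 4 smooth muscle markers was 809.5 FPKM against 305.4 to 627.5 in the other libraries, and within its group it had the highest luteal sum (5610 against 3872 to 4495) and the lowest granulosa sum (594.2 against 718.6 to 807.6). In PCOS-MV 3 the sum of 6 luteal markers was 7936 FPKM, against 3383 to 3976 in the rest of its group, and the sum of 6 granulosa markers was 1041 against 569 to 750.5 FPKM. PCOS-MV 3 also lay above the rest of its group in endothelial (95.6 against 68.4 to 71.4 FPKM) and red blood cell markers (167.4 against 50.5 to 94.3) and below it in smooth muscle (305.4 against 497 to 627.5) and leukocyte markers (60.1 against 61.7 to 79.5). Most of its luteal sum came from Akr1c3 (4692 FPKM) and Star (2891), and nearly all of its red blood cell sum from Hbb (165.5). Markers of granulosa, theca, luteal and oocyte cells were above 0 in all 12 libraries. Many of the results that rest on Control 3 or PCOS-MV 3 are given with and without them, but not all.

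The largest called difference was that of Dusp1, which was lower in PCOS than in Control ovaries and was the only 1 of 9 members called there, where 27.4% of all genes tested were called. Egr1 was lower and Atf3 was higher in PCOS-MV than in PCOS ovaries, 2 of 9 members against 25.7% of all genes, and both calls ended in most alternatives. Between PCOS-MV and Control ovaries 0 of 9 were called by limma (0.00745% of all genes), and 1 of 9 had an unadjusted p under 0.05. The FOS, EGR and ATF members varied widely from rat to rat, and Control 3 held the highest of the 12 values for 8 of the 9 members.

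**Figure D2:**
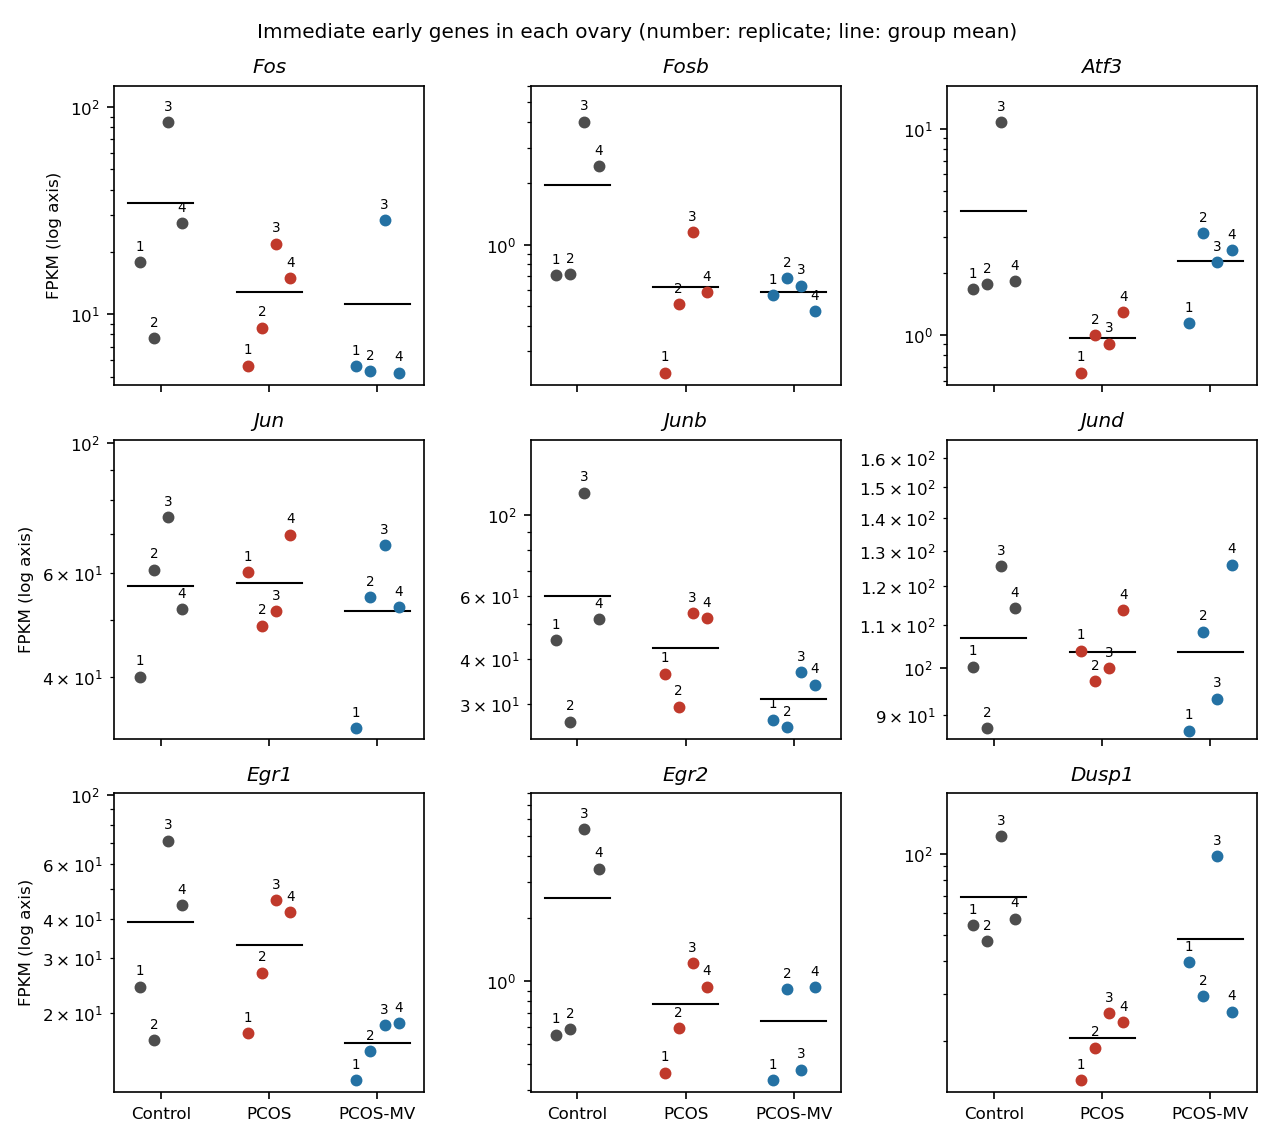
FPKM of 9 immediate early genes in each of 12 rat ovaries. The vertical axes are logarithmic, each point is 1 rat with its replicate number, and the lines are group means of 4 rats. Control 3 is the highest point in every panel but that of Jund, and the Dusp1 values of the PCOS group, 14.3 to 25.4 FPKM, lie below all others.

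Fos encodes the founding member of the FOS family, which binds DNA as a dimer with a JUN protein (AP-1). The gene (ENSRNOG00000008015) spans chromosome 6 from 109300433 to 109303299. Coordinates are the authors', and their genome build is not given in the sources used here. Fos was at 17.9, 7.70, 84.6 and 27.4 FPKM in Control 1 to 4, at 5.65, 8.62, 21.9 and 14.9 in PCOS 1 to 4, and at 5.65, 5.32, 28.5 and 5.23 in PCOS-MV 1 to 4. Control 3 was the highest of all, PCOS-MV 3 was at least 5 times each of the others of its group, and the 3 groups overlapped. Fos averaged 34.4 ± 34.4 FPKM in Control, 12.8 ± 7.22 in PCOS and 11.2 ± 11.6 in PCOS-MV ovaries (SD, n = 4). On the log2(FPKM + 1) scale used for all differences here, the PCOS value was -1.02 from Control (standard error 0.66, 95% interval -2.54 to 0.49, limma, adjusted p = 0.287). Neither a several-fold fall nor a small rise was resolved. The PCOS-MV value of Fos was -0.40 from PCOS (limma, adjusted p = 0.644), and -0.95 without PCOS-MV 3. From Control it was -1.42 (limma, adjusted p = 0.623), and -0.83 without Control 3 or -1.97 without PCOS-MV 3.

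Fosb encodes a second FOS protein and was scarce. Fosb (ENSRNOG00000046667, chromosome 1) was at 0.709, 0.717, 4.02 and 2.44 FPKM in Control 1 to 4, at 0.235, 0.510, 1.15 and 0.585 in PCOS 1 to 4, and at 0.564, 0.685, 0.628 and 0.471 in PCOS-MV 1 to 4. Control 3 and Control 4 were high, and the other 10 ovaries lay near or below 1 FPKM. The PCOS-MV values of Fosb lay wholly below the Control values (exact two-sided permutation test, p = 0.0286, the smallest that 4 against 4 rats allow), whereas the limma difference of -0.75 was not called (standard error 0.34, adjusted p = 0.598). With 1 rat left out that Fosb difference lay between -0.96 and -0.45. Against PCOS the Fosb difference in PCOS-MV was 0.00 (95% interval -0.37 to 0.37). Fosb and Egr2 passed the filter of a mean of 1 FPKM only through the Control group, so a difference from Control was partly built into their being tested.

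The JUN proteins are the partners of FOS in AP-1, and their genes have 1 exon each in the authors' annotation. Jun (ENSRNOG00000026293) lies on chromosome 5, and Junb (ENSRNOG00000042838) and Jund (ENSRNOG00000019568) on chromosomes 19 and 16. Jund was the most abundant and the least variable member. Its range was 87.3 to 125.5 FPKM in Control, 97.0 to 113.7 in PCOS and 86.8 to 126.0 in PCOS-MV ovaries. The 3 group means of Jund, 106.9 ± 16.6, 103.6 ± 7.31 and 103.6 ± 17.5 FPKM (SD, n = 4), differed by less than the spread between rats, and the 95% interval of the PCOS difference from Control was -0.30 to 0.23.

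Jun was at 40.0, 60.9, 74.9 and 52.2 FPKM in Control 1 to 4, at 60.4, 48.9, 51.8 and 69.8 in PCOS 1 to 4, and at 32.7, 54.6, 67.0 and 52.5 in PCOS-MV 1 to 4. The groups overlapped throughout, and the Jun difference was 0.04 for PCOS against Control (95% interval -0.39 to 0.47) and -0.19 for PCOS-MV against PCOS (95% interval -0.67 to 0.29). Junb, the JUN protein that often opposes Jun, was at 45.2, 26.9, 115.6 and 51.6 FPKM in Control 1 to 4, at 36.5, 29.6, 53.6 and 51.9 in PCOS 1 to 4, and at 27.2, 26.0, 36.9 and 34.0 in PCOS-MV 1 to 4. Only Control 3 stood out for Junb. The PCOS-MV values of Junb lay at the low end of the other groups, with a difference of -0.43 from PCOS (standard error 0.20, limma, adjusted p = 0.155) and -0.74 from Control (standard error 0.38, adjusted p = 0.619). With 1 rat left out the Junb difference from Control lay between -1.05 and -0.36.

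The EGR proteins are zinc finger factors, and Egr1 is needed for expression of the LH beta subunit in the pituitary as well as being induced in follicles. Egr1 (ENSRNOG00000019422) lies on chromosome 18 from 27657628 to 27661429 and has 2 exons. Egr1 was at 24.3, 16.4, 71.4 and 44.3 FPKM in Control 1 to 4, at 17.3, 26.9, 46.1 and 42.2 in PCOS 1 to 4, and at 12.2, 15.1, 18.2 and 18.6 in PCOS-MV 1 to 4. The PCOS-MV ovaries had low and similar Egr1 values, while Control and PCOS ovaries each spanned more than 2 times from lowest to highest. Egr1 averaged 39.1 ± 24.5 FPKM in Control, 33.1 ± 13.4 in PCOS and 16.0 ± 3.01 in PCOS-MV ovaries (SD, n = 4).

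Egr1 was called lower in PCOS-MV than in PCOS ovaries, by -0.93 (standard error 0.29, limma, adjusted p = 0.0474), and PCOS 1 fell within the PCOS-MV range (exact two-sided permutation test, p = 0.0857). The Egr1 call ended when any 1 rat other than PCOS 1 was left out, with adjusted p up to 0.120, and was kept in 4 of 14 alternatives. Against Control the Egr1 difference in PCOS-MV was -1.04 (standard error 0.41, unadjusted p = 0.0317, limma adjusted p = 0.561). Egr2, which carries the same CArG letters, was scarcer and was called in no comparison. Egr2 (ENSRNOG00000000640, chromosome 20) was at 0.553, 0.589, 5.37 and 3.48 FPKM in Control 1 to 4, at 0.363, 0.595, 1.22 and 0.939 in PCOS 1 to 4, and at 0.335, 0.914, 0.375 and 0.934 in PCOS-MV 1 to 4. As for Fosb, Control 3 and Control 4 were high, and the Egr2 difference between PCOS-MV and PCOS was -0.12 (95% interval -0.56 to 0.33).

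Atf3 encodes a stress-induced ATF/CREB family factor that mostly represses transcription. Atf3 (ENSRNOG00000003745) lies on chromosome 13 from 109817728 to 109849632. Atf3 was at 1.67, 1.76, 10.8 and 1.83 FPKM in Control 1 to 4, at 0.657, 0.997, 0.909 and 1.29 in PCOS 1 to 4, and at 1.14, 3.11, 2.25 and 2.58 in PCOS-MV 1 to 4. Every PCOS value of Atf3 lay below every Control value, and 3 of the 4 PCOS-MV values lay above every PCOS value. Between PCOS and Control the Atf3 difference was -1.02 (standard error 0.45, limma, adjusted p = 0.131, exact two-sided permutation test p = 0.0286). Without Control 3 the Atf3 difference was smaller, -0.50, and was called (adjusted p = 0.0243).

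Atf3 was called higher in PCOS-MV than in PCOS ovaries, by 0.71 (standard error 0.20, limma, adjusted p = 0.0332, exact two-sided permutation test p = 0.0571). This Atf3 call was kept when PCOS 4 or PCOS-MV 1 was left out and ended when any other of the 8 rats was, with adjusted p up to 0.0808. It was kept in 5 of 13 alternatives. At 0.657 to 3.11 FPKM in these 8 ovaries, Atf3 is near the low end of what was tested, and the added 1 FPKM shrinks its fold change.

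Dusp1 encodes the MAP kinase phosphatase MKP-1, the feedback arm of the group. Dusp1 (ENSRNOG00000003977) lies on chromosome 10 from 16970626 to 16973418 and has 4 exons. Dusp1 was at 54.3, 47.3, 116.8 and 57.4 FPKM in Control 1 to 4, at 14.3, 18.9, 25.4 and 23.6 in PCOS 1 to 4, and at 39.6, 29.4, 98.2 and 25.9 in PCOS-MV 1 to 4. All 4 PCOS values of Dusp1 were below all 8 values of the other groups, and the Control and PCOS-MV groups overlapped. Dusp1 averaged 69.0 ± 32.2 FPKM in Control, 20.6 ± 4.97 in PCOS and 48.3 ± 33.8 in PCOS-MV ovaries (SD, n = 4).

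Dusp1 differed by -1.63 on the log2 scale between PCOS and Control (standard error 0.29, 95% interval -2.29 to -0.98, limma, adjusted p = 0.00357, exact two-sided permutation test p = 0.0286). The Dusp1 call was kept in 14 of 14 alternatives, and the difference without any 1 of the 8 rats stayed between -1.78 and -1.35. Between PCOS-MV and PCOS the Dusp1 groups did not overlap either (exact two-sided permutation test, p = 0.0286), but the difference of 1.01 was not called (standard error 0.39, 95% interval 0.13 to 1.90, limma, adjusted p = 0.0903). Without PCOS-MV 3 that Dusp1 difference was 0.61 (adjusted p = 0.0765).

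Cell type markers moved in the same comparisons as Dusp1. In PCOS ovaries 3 of 4 theca markers were higher than in Control and the other, Ptch1, was lower (16.6 against 22.8 FPKM), with a summed level of 1641 to 3233 FPKM against 86.9 to 153.2. Of the luteal markers 3 of 6 were lower and 1 higher, with sums of 971.9 to 1908 against 3872 to 5610 FPKM, and 4 of 4 endothelial markers were lower, with sums of 47.0 to 57.7 against 80.6 to 102.6 FPKM. Star and Akr1c3 made up most of the luteal sums. Lhcgr (149.4 against 59.0 FPKM), Sfrp4 (15.9 against 4.94) and Prlr (110.2 against 103.6) averaged higher in PCOS than in Control ovaries. Of the granulosa markers 4 of 6 were higher, with sums of 1052 to 1481 against 594.2 to 807.6 FPKM. Amh was not called and averaged lower in PCOS than in Control ovaries (27.99 against 48.87 FPKM). Most of the granulosa sums came from Inha, which averaged 806.5 FPKM in PCOS and 489.7 in Control ovaries. In PCOS-MV ovaries the sums were 41.2 to 163.4 FPKM for theca, 3383 to 7936 for luteal, 68.4 to 95.6 for endothelial and 569 to 1041 for granulosa markers. None of these markers was at 0 in any library. In whole ovaries fewer cells of a type and less RNA per cell cannot be told apart, and the part of these markers in the Dusp1 difference was not tested.

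Across the group, 1 of 9 members was called in PCOS against Control, where 27.4% of all 13430 genes tested were called. In PCOS-MV against PCOS 2 of 9 were called against a background of 25.7%, so neither count sets the members apart from genes at large. In PCOS-MV against Control 0 of 9 were called by limma, as were 0.00745% of all genes, and at an unadjusted p under 0.05 it was 1 of 9, Egr1, against 8.5% of all genes. Groups did not overlap for 2 of 9 members in the first comparison (Dusp1 and Atf3, background 31%), 1 of 9 in the second (Dusp1, background 30%) and 1 of 9 in the third (background 5.1%). That 1 was Fosb, which was tested only through its Control values, so nothing is read from this count. The median difference of the 9 members was -0.73 for PCOS against Control, -0.12 for PCOS-MV against PCOS and -0.74 for PCOS-MV against Control, beside -0.03, 0.03 and 0.00 for all genes tested. Fosb and Egr2 enter these medians although they passed the filter through Control alone, and over the other 7 members the medians were -0.31, -0.19 and -0.62. The comparisons share groups, so these values are not independent of each other. The medians against Control include Control 3 and were not taken again without it. Leaving it out gave PCOS differences from Control of -1.35 for Dusp1, -0.50 for Atf3, -0.44 for Fos and Fosb and -0.35 for Egr2. They were 0.05 for Jund, 0.07 for Junb, 0.18 for Jun and 0.24 for Egr1. Every member lay higher without this rat, so the medians of -0.73 and -0.31 rest in part on it.

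**Figure D3:**
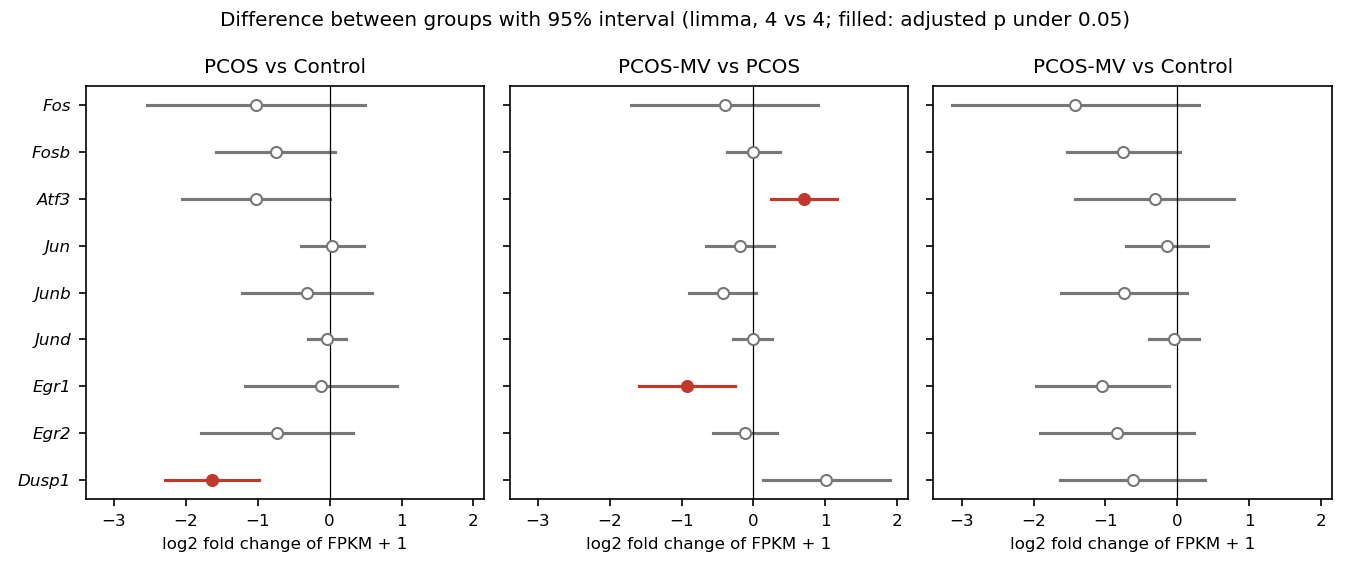
Differences in log2(FPKM + 1) of 9 immediate early genes in the 3 comparisons of 4 against 4 rats, with 95% intervals from limma. Filled red points have an adjusted p under 0.05, which are Dusp1 at -1.63 in the first panel and Egr1 at -0.93 and Atf3 at 0.71 in the second. The intervals of Fos are the widest and those of Jund the narrowest in all 3 panels.

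The members differed in how much they varied between rats of the same group. Fos had a within-group SD of 1.12 on the log2 scale, more than 99.0% of all genes tested, whose median was 0.18. The SD was 0.66 for Atf3, 0.66 for Egr1, 0.65 for Egr2 and 0.63 for Dusp1, each more than 95.3% or more of genes. Junb followed at 0.56 and Fosb at 0.49, and the lowest were Jun at 0.35, above 84.2% of genes, and Jund at 0.20, above 56.1%. Without Control 3 the SD of Fos was 0.94, still above 98.7% of genes, and that of Dusp1 was 0.57, while that of Atf3 dropped to 0.28, above 78.2%.

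Control 3 was the library in which the members were highest. Against the mean of the other 3 Control ovaries its values were 6.14 times for Atf3, 4.79 times for Fos, 3.48 times for Egr2, 3.12 times for Fosb, 2.80 times for Junb, 2.52 times for Egr1 and 2.20 times for Dusp1. Jun and Jund were closer, at 1.47 and 1.25 times. Control 3 had the highest of all 12 values for 8 of 9 members, where it was the highest for 13.1% of all genes, and the exception was Jund, highest in PCOS-MV 4. For Fos, Junb, Atf3 and Dusp1 it was at least 2 times the next highest Control ovary, which was so for 3.1% of all genes.

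Several differences from Control therefore depended on this rat. Without Control 3 the PCOS difference of Fos was -0.44, of Fosb -0.44, of Egr2 -0.35, of Egr1 0.24 and of Junb 0.07, where Egr1 and Junb had been at -0.12 and -0.31, and these members were not called in either case. The Dusp1 difference was -1.35 without Control 3 (limma, adjusted p = 0.00135). Without both Control 3 and PCOS-MV 3 the PCOS-MV differences from Control were -1.39 for Fos, -0.74 for Dusp1 and -0.76 for Egr1, and again 0 of 9 members were called.

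Other immediate early genes were also high in Control 3. Of 33 tested, 5 were at least 2 times the next highest Control ovary, and these were the orphan nuclear receptors Nr4a1 (4.58 times the mean of the other 3), Nr4a2 (2.73) and Nr4a3 (2.68), the mRNA decay factor Zfp36 (2.84) and the antiproliferative gene Btg2 (3.99). Control 3 had the highest of 12 values for 16 of the 33. As given above, its oviduct and smooth muscle markers were high as well, and their part in these values was not tested.

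PCOS-MV 3 was high in a narrower set. Its Fos was 5.29 times and its Dusp1 3.11 times the mean of the other 3 PCOS-MV ovaries, and these 2 of 9 members were at least 2 times the next highest, against 1.15% of all genes. Fosb, Egr1, Atf3 and Junb were at 1.10, 1.20, 0.99 and 1.27 times, and Egr2 was at 0.51 times. Among the other immediate early genes Zfp36 (3.45 times), Nr4a1 (3.33), the kinase gene Sik1 (3.27), the matricellular gene Ccn2 (2.41) and the FOS family gene Fosl2 (2.10) were also at least 2 times the next highest. So were 2 of 7 heat shock genes, the chaperones Hspa1b at 73.1 FPKM (6.45 times) and Dnajb1 at 99.1 FPKM (2.36 times). Hence Fos and Dusp1 were high in both Control 3 and PCOS-MV 3, whereas Atf3, Egr1 and Egr2 were high in Control 3 and not in PCOS-MV 3. Luteal, granulosa, endothelial and red blood cell markers were also high in PCOS-MV 3 and smooth muscle markers low, and their part was not tested.

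**Figure D4:**
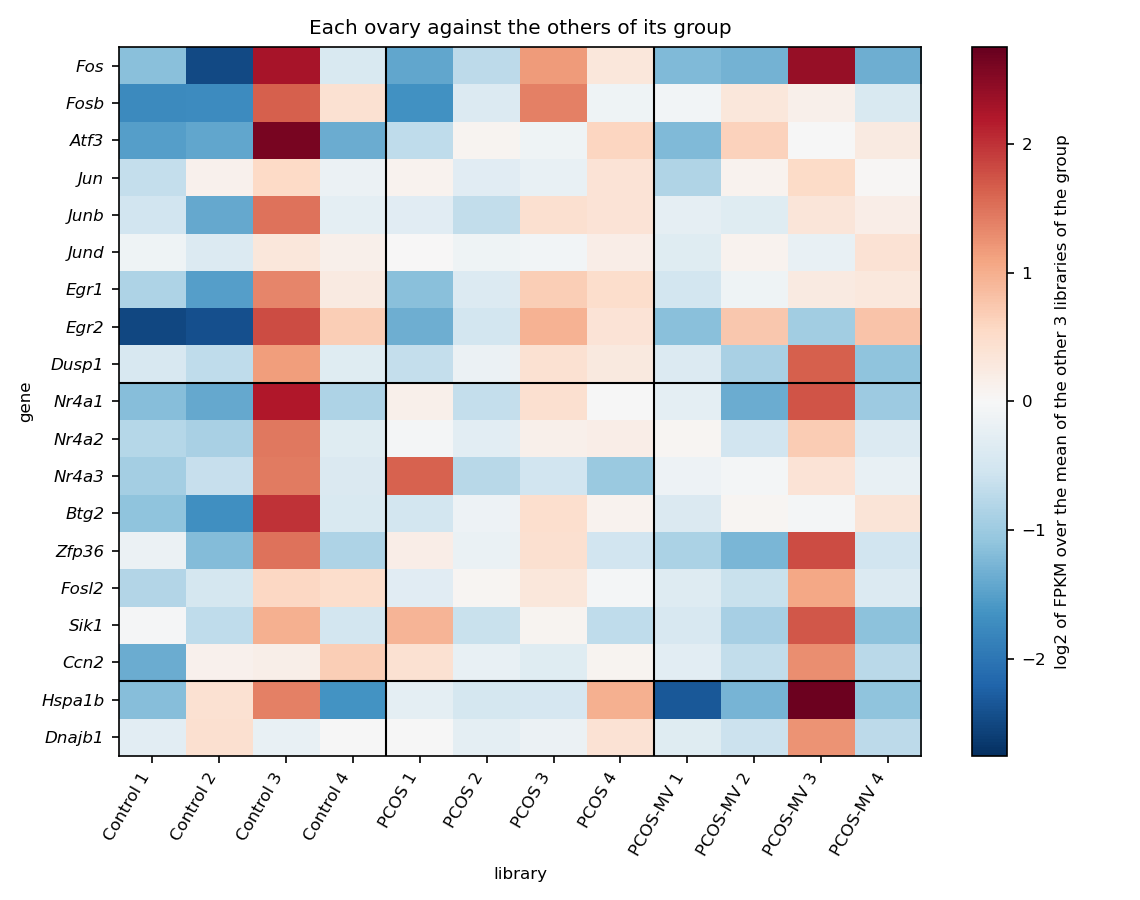
Each ovary against the others of its own group for the 9 members (top), 8 other immediate early genes (middle) and 2 heat shock genes (bottom), the last 2 sets being those at least 2 times the next highest in Control 3 or PCOS-MV 3. Colour is the log2 ratio of FPKM to the mean of the other 3 libraries, red for higher and blue for lower. Control 3 is red for all 9 members, and PCOS-MV 3 is strongly red for Fos and Dusp1 but not for Atf3 or Egr2.

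Within groups, the members were compared with Fos rat by rat, using deviations of log2(FPKM + 1) from the group mean over the 12 libraries and an exact two-sided permutation of libraries within groups, with p adjusted over 8 relations. Dusp1 followed Fos most closely (r = 0.92, permutation p = 7.23e-05, the smallest possible, adjusted p = 0.000579, Spearman rho = 0.88 with permutation p = 7.23e-05). Junb (r = 0.86, permutation p = 0.00275, rho = 0.75 with p = 0.0152), Egr1 (r = 0.84, permutation p = 0.00246, rho = 0.78 with p = 0.00535) and Fosb (r = 0.77, permutation p = 0.00311, rho = 0.73 with p = 0.0169) also passed, each with an adjusted permutation p of 0.00622 for r. Egr2 (r = 0.62, adjusted permutation p = 0.150), Atf3 (0.61, 0.231), Jun (0.45, 0.250) and Jund (0.31, 0.427) did not, so 4 of 8 relations passed. Their rho was 0.55 for Egr2, 0.37 for Atf3, 0.27 for Jun and 0.22 for Jund, with permutation p of 0.135, 0.283, 0.449 and 0.551.

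Control 3 and PCOS-MV 3 were the libraries farthest from the median in Fos. Leaving both out allowed 864 permutations, against 13824 with all 12 libraries, so small p were harder to reach. Without them Dusp1 still followed Fos (r = 0.76, permutation p = 0.00116, the smallest possible there, adjusted p = 0.00926), and it was the only 1 of 8 to pass. The r of Egr1 was 0.92, of Junb 0.85 and of Fosb 0.81, with adjusted permutation p of 0.0741, 0.0995 and 0.0995. These r were close to or above those with all libraries, as were those of Egr2 (0.71) and Jund (0.37). The r of Dusp1, Jun (-0.21) and Atf3 (0.16) were lower than with all libraries. With all 12 libraries, Dusp1 ranked 2 among all other genes tested by its r with Fos, behind Fmo4, a flavin monooxygenase gene (r = 0.93). Junb and Egr1 ranked 22 and 35, Fosb 133, Egr2 652, Atf3 705, Jun 1748 and Jund 2866. The share of all genes that would pass the same permutation test is not given. Depth and tissue composition are shared by all genes of a library, and their part was not tested.

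**Figure D5:**
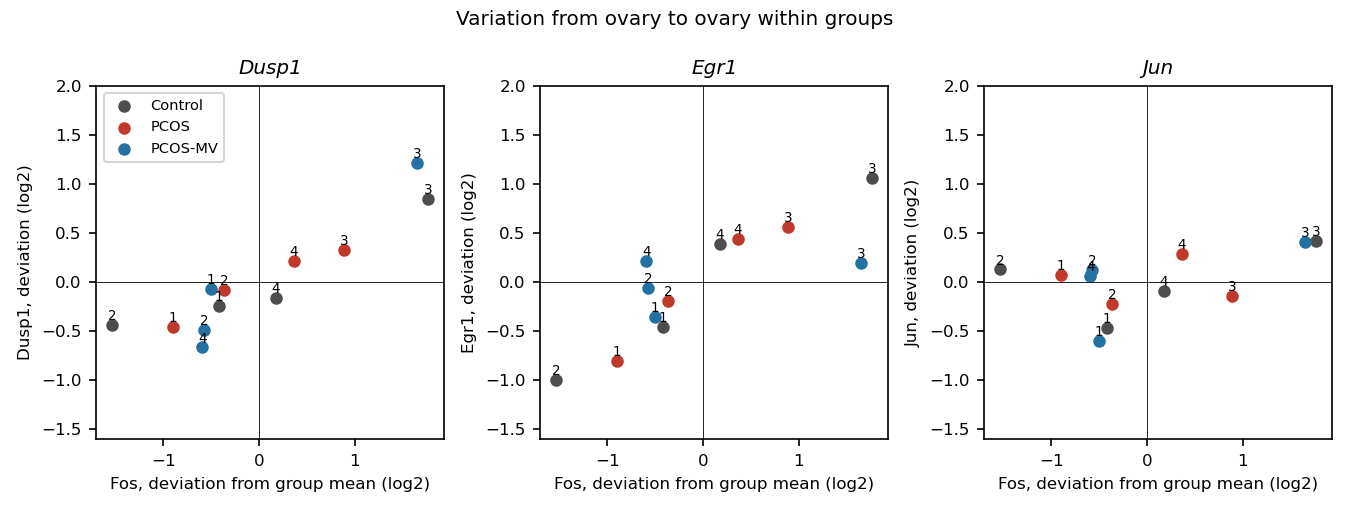
Deviation of Dusp1, Egr1 and Jun from their group mean against that of Fos, in log2(FPKM + 1), for 12 ovaries labelled by replicate number and coloured by group. Dusp1 (r = 0.92) and Egr1 (r = 0.84) rise with Fos, and Jun (r = 0.45) less so. Control 3 and PCOS-MV 3 lie farthest to the right.

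Among genes with a symbol, those whose level over the 12 libraries was most like the mean of the members were Cfap70 (Pearson r = 0.94), Btg2 (0.94), Dnah7 (0.94), LOC690276 (0.94) and Ptger2 (0.93), the last a prostaglandin E2 receptor gene. Cfap70 and Dnah7 are genes of motile cilia. Dnah7 was at 11.7 FPKM in Control 3 and at 0.563 to 3.30 in the other libraries, in parallel with the oviduct markers there. Without Control 3 these r were 0.79 to 0.82, and Cfap70 then ranked 9 and Ptger2 ranked 23. The members themselves had r from 0.51 for Jun to 0.93 for Fos with their mean.

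Outside the 9 members, 33 other immediate early genes were tested. In PCOS against Control, 12 of 33 were lower and 3 higher, with a median of -0.55, beside 15.6% lower and 11.9% higher among all genes. The lower genes included the stress gene Gadd45b (-1.52, from 10.2 ± 1.54 to 2.87 ± 0.249 FPKM, SD, n = 4), the kinase gene Plk2 (-1.35), the synaptic gene Arc (-1.24), Zfp36 (-1.18), Ccn2 (-1.15), Csrnp1 (-1.07) and Cebpb (-1.06), a factor of the ovulatory response. Fosl2, Trib1, Myc, Klf6 and Klf2 were lower too, at -0.73 to -0.55. Arc passed the filter through Control alone (3.00 FPKM, against 0.586 in PCOS and 0.683 in PCOS-MV ovaries), so its difference from Control was partly built in. Gadd45g rose by 1.55, from 6.98 ± 2.41 to 21.7 ± 2.29 FPKM (SD, n = 4), and Irf1 and Rhob rose by 0.81 and 0.44. These calls are from limma with adjusted p under 0.05. Without Control 3 it was 11 lower and 3 higher, with a median of -0.26, and without PCOS 2 or PCOS 3 it was 7 lower and 2 higher. Of the 15 calls 9 were kept in every alternative, whereas Trib1 kept its call in 10 of 13, Ccn2 and Klf2 in 8 of 14, Zfp36 in 7, Rhob in 5 and Fosl2 in 4.

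In PCOS-MV against PCOS, 7 of 33 were higher and 5 lower, with a median of 0.04, beside 14.3% higher and 11.4% lower among all genes. Nfil3 (1.28), Gadd45b (0.99), Cebpb (0.96), Fosl2 (0.89), Plk2 (0.76), Csrnp1 (0.49) and Ier5 (0.35) were higher. Gadd45g (-1.67), Cebpd (-0.87), the NF-kappaB inhibitor gene Nfkbia (-0.74), Rhob (-0.59) and Irf1 (-0.54) were lower. Without PCOS-MV 3 it was 6 higher and 8 lower, and without PCOS 1 or PCOS 4 it was 4 higher and 5 lower. Of the 12 calls 8 were kept in every alternative, Csrnp1 in 13 of 14, Fosl2 in 10 and Plk2 and Ier5 in 8. In PCOS-MV against Control 0 of 33 were called. Gadd45b shows the levels side by side, with ranges of 8.54 to 12.1 FPKM in Control, 2.62 to 3.18 in PCOS and 5.57 to 7.50 in PCOS-MV ovaries.

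Dusp1 has relatives that remove phosphate from the same kinases, and 8 of the 9 listed were tested. In PCOS against Control the ERK phosphatase gene Dusp6 (-1.63), Dusp16 (-1.10), Dusp5 (-0.92) and Dusp4 (-0.78) were lower and Dusp9 was higher (1.08), 5 of 8 where 27.4% of all genes were called, with a median of -0.58. Dusp9 passed the filter through PCOS alone (2.14 FPKM, against 0.494 in Control and 0.399 in PCOS-MV ovaries), so its differences from PCOS were partly built in, and the median of the other 7 was -0.78. Dusp6 averaged 26.0 ± 8.46 FPKM in Control, 7.44 ± 0.690 in PCOS and 12.2 ± 1.85 in PCOS-MV ovaries (SD, n = 4). In PCOS-MV against PCOS, Dusp6 (0.64), Dusp5 (0.60) and Dusp4 (0.30) were higher and Dusp9 was lower (-1.17), 4 of 8 where 25.7% of all genes were called. The Dusp4 call in this comparison was kept in 4 of 13 alternatives and, with 1 rat left out, only without PCOS 1. Without Control 3 the same 5 genes were called in PCOS against Control, and without PCOS-MV 3 Dusp16 was called in place of Dusp4 in PCOS-MV against PCOS. In PCOS-MV against Control 0 of 8 were called.

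Upstream, 20 of 21 listed kinases and promoter factors were tested. In PCOS against Control the ERK-activated kinase gene Rps6ka1 (-1.20), the SRF partner Elk3 (-0.76), the ERK kinase gene Map2k1 (-0.66) and Atf1 (-0.22) were lower, and the SRF partner Elk1 was higher (0.33), 5 of 20 beside 27.4% of all genes. The Atf1 call was kept in 5 of 14 alternatives and ended when any 1 rat other than PCOS 1 was left out, Control 3 included, and that of Elk1 was kept in 12 and ended without Control 2 or PCOS 4. In PCOS-MV against PCOS, Map2k1 (0.94), Elk3 (0.65), Rps6ka1 (0.60), Mapk3 (0.54), which encodes an ERK, and Map2k2 (0.33) were higher, while Elk1 (-0.39) and Atf2 (-0.21) were lower, 7 of 20 beside 25.7% of all genes. In this comparison Rps6ka1 kept its call in 6 of 14 alternatives and, with 1 rat left out, only without PCOS-MV 1, PCOS-MV 2 or PCOS-MV 3. Atf2 kept its call in 5 and, with 1 rat left out, only without PCOS 3, and Map2k2 in 13, losing it without PCOS 2. Srf itself averaged 16.1 ± 1.33 FPKM in Control, 15.2 ± 1.70 in PCOS and 15.8 ± 1.03 in PCOS-MV ovaries (SD, n = 4), and Srf and Creb1 were called in no comparison. In PCOS-MV against Control 0 of 20 were called. Of the heat shock genes, 3 of 7 (Hspb1, Dnajb1 and Hspa1b) were lower in PCOS than in Control ovaries, beside 15.6% of all genes, and 2 of 7 (Hspb1 and Hspe1) were higher in PCOS-MV than in PCOS ovaries, beside 14.3%. The first count was 4 without Control 3, 2 when Control 2, PCOS 1, PCOS 2 or PCOS 3 was left out and 0 with 1 model for 12 libraries, and the second was 3 without PCOS-MV 3.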

How the data were processed

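Ovaries of 12 rats gave 1 RNA-seq library each, and samples were grouped by the titles and treatments in their labels. The authors deposited FPKM values per gene, which they computed from read counts and gene lengths after filtering the reads. The paper names HISAT2 v2.0.5 and featureCounts, whereas the submitters' processing notes name STAR 2.5.1b and HTSeq 0.6.0, so which aligner made the values is unsettled. The genome build is not given in the sources used here. The number of reads per library is unknown, so no counting error could be given. The deposited columns of the authors' own fold changes, p-values and group means were not used. The table has 26928 transcript lines, which repeat the values of a gene, and was reduced to 19730 genes. The kit as described does not state strand, and reads of overlapping or antisense genes cannot be told apart. Genes averaging at least 1 FPKM over the 12 libraries, 13430 in all, were tested as log2(FPKM + 1), a scale that understates changes of low genes, by limma 3.58.1 in R 4.3.3 (lmFit, eBayes with trend) in pairs of groups. Genes with a Benjamini-Hochberg adjusted p under 0.05 over all genes tested were called. Exact permutation tests, plots and sequence searches used Python 3.11.15, scipy 1.17.1 and matplotlib 3.10.9. The code was tested on simulated data. Promoter windows came from RefSeq on GRCr8, which is not known to be the authors' build and was used for no expression value.

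The text names all members and the 5 genes with a symbol that were most like the mean of the members. It also names all called genes of the lists of other immediate early genes, kinases and promoter factors and MAP kinase phosphatases. The plan was to name up to 12 per comparison from each list. The genes named for single libraries, the heat shock genes, Fmo4, Srf, Creb1 and Pax8 were named after their values were seen. So were the markers Ptch1, Inha, Amh, Star, Akr1c3, Lhcgr, Sfrp4, Prlr and Hbb. The members and lists were chosen with earlier results of these data known. The oviduct list and the alternative without Control 3 and PCOS-MV 3 together were added after the values were seen. Alternatives covered the pseudocount, the filter, rescaling by median ratio, 1 model for all libraries, the replicate number as a block, a 2-fold threshold and each library left out. Replicates are separate rats.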

Additional observations from a re-analysis of the deposited data

Results flagged for a closer look

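In 3 of the 27 groups of 4 libraries examined (9 members in 3 groups), 1 library lay far from the other 3 in FPKM. About 1.35 such groups would be expected by chance if the rule's chance rate held for these FPKM values, which is not known. The members varied together from rat to rat, and Atf3 and Dusp1 were both flagged in Control 3. Hence 3 against 1.35 is not read as an excess. Fos was at 28.5 FPKM in PCOS-MV 3, and the gap to the next library took 0.982 of the group's range. Atf3 was at 10.8 FPKM in Control 3, with a gap of 0.982 of the range. Dusp1 was at 116.8 FPKM in Control 3, with a gap of 0.854 of the range. The values of the other members in these libraries and the markers that were high beside them are given in the report, and their part was not tested.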

How the results depend on the processing

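Over 27 member differences, 378 alternative values were computed. Of these, 358 kept their direction or stayed uncalled, 18 lost the call, 2 gained one and 0 called values reversed. The lost calls were those of Egr1 (10) and Atf3 (8) in PCOS-MV against PCOS, and the gained calls were Atf3 in PCOS against Control without Control 3 and Junb in PCOS-MV against PCOS with the replicate block (adjusted p = 0.0245, range over all alternatives 0.0245 to 0.416). The number of members called in PCOS against Control was 1 to 2 with a library left out. In PCOS-MV against PCOS, it was 0 with no filter, 0 with 1 model for 12 libraries, 0 with an added 2-fold change, 1 with a mean of at least 5 FPKM, 1 after rescaling, and 0 to 1 with a library left out. Over all genes, an added 2-fold change lowered the calls from 3684 to 907 and from 3448 to 751 in these comparisons. In PCOS-MV against Control, all genes called were 1 by default, 0 with a mean of at least 5 FPKM, 1 to 4 with a library left out and 6 without Control 3 and PCOS-MV 3 together. The relations with Fos that passed went from 4 to 1 without both of those libraries, and were 3 to 5 with 1 library left out. Fewer permutations were possible without both, 864 against 13824. The cause of these changes was not tested.

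The replicate numbers were not taken to pair the rats, since not every same-numbered pair was correlated above 0.1 in any comparison and the labels tie no number to a litter or batch. Same-numbered libraries had deviations correlated at -0.03 to 0.02 in PCOS against Control, 0.04 to 0.17 in PCOS-MV against PCOS and -0.05 to 0.22 in PCOS-MV against Control. In PCOS-MV against PCOS 3 of 4 pairs were above 0.1, pairs with other numbers lay at -0.16 to 0.04, and 7 of 8 libraries correlated best with their own number, a hint from the data and not the design. With the replicate block all genes called were 2905, 3079 and 0 in the 3 comparisons, and members called were 1, 3 and 0. Since depth is unknown and each group has 4 rats, differences such as those of Fos, whose 95% interval spans -2.54 to 0.49, could not be resolved.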

Other observations

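Ranked by r with Fos within groups, Cebpd, a C/EBP family factor gene that is also immediate early, ranked 5 among all genes tested that have a symbol (r = 0.90, and 0.88 without Control 3 and PCOS-MV 3). Cebpd was at 12.01 to 20.7 FPKM in Control, 12.5 to 21.3 in PCOS and 7.98 to 10.6 in PCOS-MV ovaries. Nr4a3 was the only other immediate early gene at least 2 times the next highest library of its group in PCOS ovaries, at 2.97 FPKM in PCOS 1 against 0.831 to 1.10 in the other 3. Without Control 3, the genes with a symbol most like the mean of the members were Slc16a4 (r = 0.88), Rnf144b (0.87), Pias2 (0.86), Spry1 (0.86), a feedback inhibitor of ERK signaling, and Fgfr1op2 (0.86), which were named after their values were seen.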
